A study of Caenorhabditis elegans with 12 samples.

Results

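The heterochronic genes of *C. elegans* decide which larval stage a cell behaves as, and 9 of them are described here in worms grown with or without cadmium (Cd). They were chosen by name from the 46546 named genes of the count tables: *lin-14*, *lin-28*, *lin-46*, *hbl-1*, *daf-12*, *alg-1*, *lin-41*, *lin-29* and *mab-10*. All 9 were found and all 9 passed the filter on low counts in every comparison.

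In this pathway, early larval regulators are switched off in turn as the worm develops, mainly by microRNAs that bind their messenger RNAs. LIN-14, then LIN-28 and HBL-1, specify early larval patterns of division, while LIN-46 and the nuclear hormone receptor DAF-12 act where the early programme gives way to the late one. LIN-41 holds back LIN-29 and its partner MAB-10, which drive the switch from larva to adult in the skin.

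The worms were wild type N2 hermaphrodites on nematode growth medium with *Escherichia coli* OP50 at 20 °C. They were synchronised by bleaching and grown from the first larval stage (L1). Poly-A RNA was sequenced in 12 libraries of whole worms, 3 replicates in each of 4 groups: L4 worms after 47 h with 20 µM cadmium chloride, L4 worms after 47 h without it, L3 worms after 27 h with 20 µM cadmium chloride, and L3 worms after 27 h without it. The design asks how stage changes each gene, how Cd changes it at L3 and at L4, and whether the Cd effect differs between the stages. L3 and L4 also differ in hours of growth and of exposure, so stage and exposure time cannot be told apart. In whole worms, fewer cells of a type and less RNA per cell cannot be told apart either.

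Libraries held between 23899991 and 44766672 counts. The metallothionein gene *mtl-1*, a known Cd-responsive gene, had 233, 211 and 256 CPM (the count as a share of the library's TMM-scaled total, on the usual CPM scale) in exposed L3 libraries, against 5.11, 5.73 and 6.22 CPM in unexposed L3 libraries. At L4 it had 14.8, 18.1 and 22.6 CPM in exposed libraries, against 2.30, 3.47 and 1.34 CPM in unexposed ones. Thus the exposed libraries lay above the unexposed ones at both stages. Unexposed L3 replicate 3 stood apart within its group. It had a summed level of 5085 CPM over a list of 17 moulting-cycle genes, against 3165 and 3004 CPM in replicates 1 and 2. Exposed L4 replicates 2 and 3 were the most alike pair of one group, with a chi-square per degree of freedom of 3.33, against 13.1 to 99.2 in the other pairs, which is still more than sampling noise. Exposed L4 replicate 1 stood apart from these 2, at 53.7 against replicate 2 and 46.4 against replicate 3. Its moulting-cycle genes summed to 1144 CPM, against 736.5 and 711 CPM in replicates 2 and 3.

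The stages were compared on marker genes. These set L4 apart from L3, but how near the L4 worms were to the adult switch was not tested. L4 here means the worms labelled so, after 47 h. The adult collagen *col-19* averaged 1564 ± 179 CPM in exposed and 1942 ± 277 CPM in unexposed L4 worms (SD, n = 3 each), and it averaged 0.467 ± 0.136 CPM in exposed and 0.833 ± 0.233 CPM in unexposed L3 worms. The summed level of 18 oocyte and germline genes was 6899 to 9288 CPM in exposed L4 libraries and 9700 to 12910 CPM in unexposed L4 libraries. At L3 it was 755.5 to 784.8 CPM in exposed and 670.4 to 709.5 CPM in unexposed libraries. The 15 sperm genes summed to 810.4 to 948.5 CPM in exposed and 821.7 to 845.1 CPM in unexposed L4 libraries, and to at most 6.78 CPM in any L3 library. L4 libraries thus carried germline RNA that L3 libraries held only at a low level, and this moved with every stage difference given here. Its part in those differences was not tested.

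The members lie on 4 chromosomes of the WBcel235 build, and the coordinates are those of the count tables. On X are *lin-14* (11465557 to 11484368, plus strand), *hbl-1* (5822277 to 5827755, plus strand), *daf-12* (10644409 to 10666874, plus strand) and *alg-1* (13949114 to 13956261, plus strand). On chromosome I are *lin-28* (8407802 to 8410804) and *lin-41* (9334812 to 9342496), both on the minus strand. On chromosome II are *lin-29* (11917642 to 11935343, minus strand) and *mab-10* (10528084 to 10533880, plus strand). *lin-46* is on chromosome V (12968855 to 12970730, plus strand). All are protein-coding genes, and their values are sums over the exons of the whole gene, so isoforms were not resolved. Exons of *daf-12* overlap those of F11A1.2 on the opposite strand by 37 bases, and exons of *lin-29* overlap those of *hmg-12* by 2 bases. Exons of *alg-1* overlap those of K02B9.10 on the same strand by 96 bases, and K02B9.10 had 0 counts over the 12 libraries. *alg-1* has a close paralog, *alg-2*, and how the counting treated reads shared by both is not given in the sources used here.

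Of the 9 members, 7 changed between the stages without Cd: 6 were lower in L4 worms and 1, *lin-28*, was higher. A gene counted as changed when edgeR's quasi-likelihood test gave a Benjamini-Hochberg adjusted p (over all tested genes) of at most 0.05 and its log2 fold change was at least 1 in size. By that rule 56.4% of all 16487 genes tested changed between the stages, 27.9% lower and 28.5% higher in L4 worms, so that most of the tested genes changed with stage. With Cd, 5 of the 9 changed, all of them lower in L4 worms, against 48.1% of all 16650 genes tested, 22.6% of them lower. The median log2 fold change of the members was -1.24 without Cd and -1.36 with Cd, against -0.07 and -0.01 over all tested genes. The 2 stage comparisons use separate libraries.

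**Figure D1:**
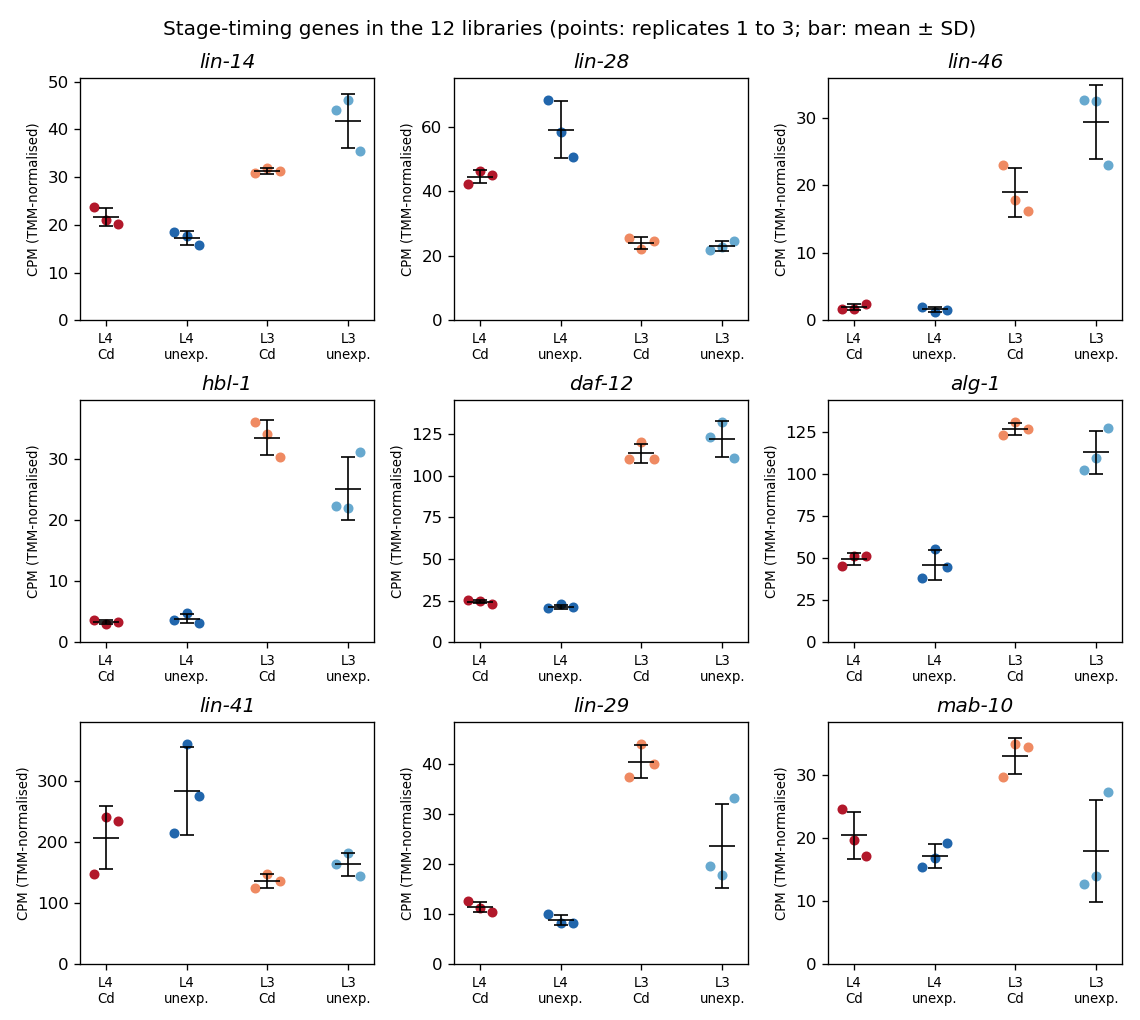
Level of each of the 9 genes in every library, in CPM (TMM-scaled, vertical axes from 0), for exposed and unexposed L4 worms and exposed and unexposed L3 worms; points are libraries and bars are means with SD. *lin-46*, *hbl-1* and *daf-12* are low in all 6 L4 libraries, *lin-28* is higher in all 6, and unexposed L3 replicate 3 lies near the exposed libraries for *lin-29*, *mab-10* and *hbl-1*.

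*lin-46* encodes a protein related to the scaffold protein gephyrin and acts between the early and late programmes by limiting HBL-1. It had 2.06, 1.20 and 1.60 CPM in unexposed L4 libraries, against 32.6, 32.4 and 23.05 CPM in unexposed L3 libraries. With Cd it had 1.75, 1.66 and 2.46 CPM in L4 libraries, against 23.04, 17.8 and 16.2 CPM in L3 libraries. The stages did not overlap in either condition, and this was the largest fall of the members without Cd. The log2 fold change was -4.10 ± 0.24 without Cd (± SE, 17.1-fold lower in L4, adjusted p = 1.83e-06) and -3.27 ± 0.20 with Cd (9.67-fold lower, adjusted p = 2.46e-07).

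*hbl-1* encodes a zinc finger transcription factor of the Hunchback family that specifies the second larval stage. It had 3.69, 4.75 and 3.26 CPM in unexposed L4 libraries, against 22.3, 22.1 and 31.2 CPM in unexposed L3 libraries. In exposed worms it had 3.59, 3.07 and 3.34 CPM at L4, against 36.1, 34.1 and 30.4 CPM at L3. Every L4 library lay below every L3 library. In L4 worms against L3 worms, its log2 fold change was -2.63 ± 0.20 without Cd (6.19-fold lower in L4, adjusted p = 7.96e-06) and -3.34 ± 0.13 with Cd (10.1-fold lower, adjusted p = 7.71e-09).

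*daf-12* encodes the receptor for dafachronic acids, steroid hormones that commit the larva to reproductive growth. It had 20.3, 22.9 and 21.1 CPM in unexposed L4 libraries, against 123, 132 and 111 CPM in unexposed L3 libraries. In exposed worms it had 25.6, 24.7 and 23.3 CPM at L4, against 110.2, 120 and 110.1 CPM at L3. The replicates were close together, and the fall was seen with little error in both conditions. Its log2 fold change was -2.44 ± 0.09 without Cd (5.44-fold lower in L4, adjusted p = 1.96e-07) and -2.22 ± 0.08 with Cd (4.65-fold lower, adjusted p = 6.93e-09).

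*lin-14* encodes the nuclear protein that specifies the first larval stage and is the classical target of the microRNA lin-4. It had 18.4, 17.6 and 15.7 CPM in unexposed L4 libraries, against 44.0, 46.1 and 35.4 CPM in unexposed L3 libraries. In exposed worms it had 23.8, 21.1 and 20.2 CPM at L4, against 30.8, 31.9 and 31.2 CPM at L3. The stages did not overlap in either condition, but they lay closer together with Cd. The log2 fold change was -1.21 ± 0.13 without Cd (2.32-fold lower in L4, adjusted p = 4.21e-05), and it was -0.53 ± 0.10 with Cd, which passed the adjusted p (0.000628) but not the fold minimum.

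*alg-1* encodes one of the Argonaute proteins that carry microRNAs. It had 38.2, 55.5 and 44.7 CPM in unexposed L4 libraries, against 103, 110 and 128 CPM in unexposed L3 libraries, and 45.7, 51.6 and 51.6 CPM in exposed L4 libraries, against 123, 131 and 127 CPM in exposed L3 libraries. Every L4 library lay below every L3 library. For *alg-1* the log2 fold change was -1.24 ± 0.14 without Cd (adjusted p = 8.14e-05) and -1.36 ± 0.08 with Cd (adjusted p = 1.82e-07). Its paralog *alg-2* averaged 47.1 ± 4.62 CPM in exposed L4 worms and 58.9 ± 3.14 CPM in exposed L3 worms. Without Cd it averaged 58.2 ± 10.7 CPM at L4 and 58.0 ± 0.73 CPM at L3. *alg-2* was chosen for mention after its values were seen.

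*lin-28*, which encodes an RNA-binding protein that blocks the maturation of the microRNA let-7, and *lin-41*, which encodes an RNA-binding protein of the TRIM-NHL family and is a classical target of let-7, were the 2 members with more RNA at L4. *lin-28* had 68.2, 58.4 and 50.6 CPM in unexposed L4 libraries, against 21.9, 22.6 and 24.7 CPM in unexposed L3 libraries. With Cd it had 42.3, 46.3 and 45.1 CPM at L4, against 25.6, 22.1 and 24.5 CPM at L3. The stages did not overlap in either condition. The log2 fold change was 1.42 ± 0.13 without Cd (2.67-fold higher in L4, adjusted p = 2.04e-05), and it was 0.88 ± 0.09 with Cd, which passed the adjusted p (1.25e-05) but not the fold minimum.

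*lin-41* had 215, 359 and 276 CPM in unexposed L4 libraries, against 164, 182 and 144 CPM in unexposed L3 libraries. In exposed worms it had 148, 240.2 and 233 CPM at L4, against 125, 147 and 136 CPM at L3. The groups did not overlap, but exposed L4 replicate 1, at 147.7 CPM, was level with the highest exposed L3 library, at 147.5 CPM. The log2 fold change was 0.86 ± 0.17 without Cd (adjusted p = 0.00186) and 0.60 ± 0.16 with Cd (adjusted p = 0.00699), below the fold minimum in both. Both genes are also known in the germline, where LIN-41 acts in oocytes, and the oocyte and germline list was higher at L4 in the same libraries: 16 of its 18 genes rose without Cd and 15 rose with Cd. By the same rule of adjusted p and fold, 4701 of all 16487 genes tested rose without Cd and 4250 of all 16650 with Cd. The part of germline RNA in the levels of *lin-28* and *lin-41* was not tested.

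*lin-29* encodes a zinc finger transcription factor of the EGR family that ends the moulting cycle of the skin, and *mab-10* encodes the NAB cofactor that works with it. *lin-29* had 10.05, 8.22 and 8.32 CPM in unexposed L4 libraries, against 19.7, 17.8 and 33.3 CPM in unexposed L3 libraries. In exposed worms it had 12.6, 11.3 and 10.5 CPM at L4, against 37.5, 43.9 and 40.1 CPM at L3. It fell in both conditions, with log2 fold changes of -1.35 ± 0.25 without Cd (2.55-fold lower in L4, adjusted p = 0.00127) and -1.83 ± 0.11 with Cd (3.55-fold lower, adjusted p = 2.29e-07).

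*mab-10* had 15.4, 16.8 and 19.2 CPM in unexposed L4 libraries, against 12.7, 14.02 and 27.2 CPM in unexposed L3 libraries. The L3 libraries lay on both sides of the L4 ones, and the log2 fold change of -0.01 had a 95% interval of -0.68 to 0.65 (adjusted p = 0.969). Without unexposed L3 replicate 3 it was 0.43 (adjusted p = 0.0291). In exposed worms *mab-10* had 24.5, 19.6 and 17.1 CPM at L4, against 29.7, 34.8 and 34.3 CPM at L3, without overlap, and the log2 fold change was -0.70 ± 0.14 (adjusted p = 0.00104), below the fold minimum. Per length of exon, *lin-29* RNA stood at 0.478 to 0.569 of that of *mab-10* in exposed L4 libraries and at 1.08 to 1.17 of it in exposed L3 libraries. Without Cd the ratio was 0.402 to 0.606 at L4 and 1.14 to 1.44 at L3. These ratios depend on the exon lengths of the count tables.

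Without the fold minimum, 8 of 9 members passed the adjusted p between the stages without Cd, against 81.3% of all genes tested, and 9 of 9 with Cd, against 79.4%. The groups did not overlap for 8 members without Cd, against 84.4% of all genes, and for 9 with Cd, against 82.2%. By these measures the share of members that differed between the stages lay near that of all genes.

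**Figure D2:**
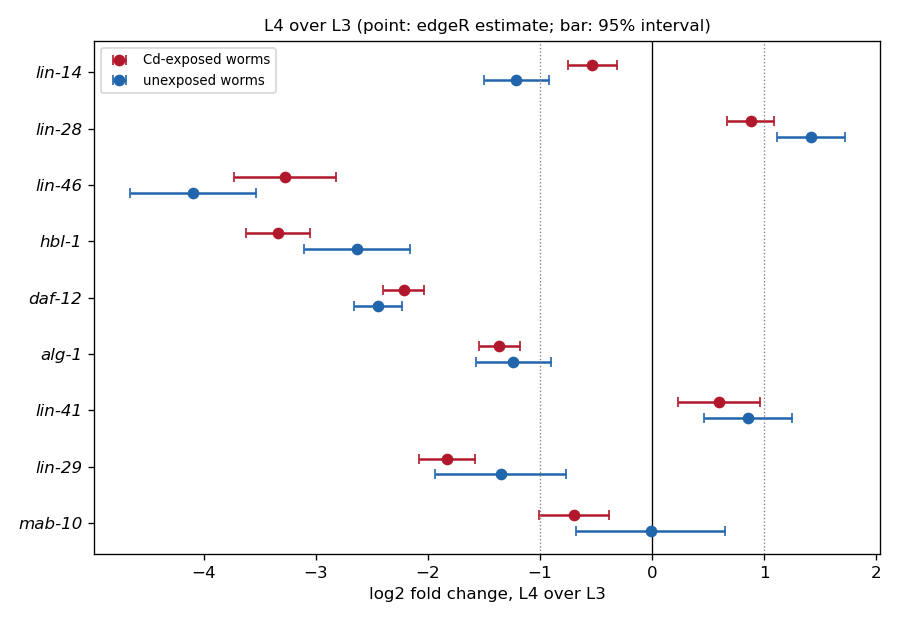
Log2 fold change of each of the 9 genes between the stages, L4 over L3, with Cd and without Cd; points are edgeR estimates, bars are 95% intervals and dotted lines mark a log2 fold change of 1 in either direction. *lin-46*, *hbl-1* and *daf-12* lie furthest to the left in both conditions, *lin-28* and *lin-41* lie to the right of 0, and the unexposed interval of *mab-10* spans 0.

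Levels can be ordered between genes only per length of exon (RPKM, CPM per kilobase). In exposed L3 worms *lin-41* (mean 28.4 RPKM) and *daf-12* (27.6 RPKM) were highest and overlapped, followed by *alg-1* (25.4 RPKM), *lin-28* (18.8 RPKM) and *lin-29* (15.9 RPKM). *lin-46*, *mab-10* and *lin-14* came next at a mean of 13.9 RPKM each, and their ranges overlapped. *hbl-1* was lowest at 7.72 RPKM, below the range of the next gene. In unexposed L3 worms *lin-41* and *daf-12* were again highest, at 34.1 and 29.7 RPKM, and *lin-29* (9.24 RPKM), *mab-10* (7.58 RPKM) and *hbl-1* (5.80 RPKM) were lowest, with overlap between neighbours.

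At L4 the order was led by *lin-41* and *lin-28*, at means of 43.2 and 34.8 RPKM with Cd and 59.1 and 46.1 RPKM without Cd, and these 2 genes overlapped in both groups. *alg-1*, *lin-14* and *mab-10* followed without separation, between 9.92 and 8.61 RPKM with Cd and between 9.22 and 7.22 RPKM without Cd. Then came *daf-12* (5.96 RPKM with Cd and 5.21 without) and *lin-29* (4.49 and 3.47 RPKM). *lin-46* (1.43 and 1.19 RPKM) and *hbl-1* (0.768 and 0.898 RPKM) were lowest, and they overlapped only without Cd. The exon length in the count tables was 61.6% of that in Ensembl release 115 for *lin-14*, 74.7% for *alg-1* and between 82.5% and 111% for the other members, so the RPKM of *lin-14* in particular depends on the annotation.

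At L3, Cd changed none of the 9 genes by the rule of adjusted p and fold, where 3.63% of all 15024 genes tested changed. In edgeR's test of the 6 L3 libraries after the low-count filter, none passed the adjusted p alone, where 6.53% of all genes did. Without that filter 4 members passed it, among 1728 of all 26489 genes tested. With all 12 libraries in the fit 3 members did, among 1317 of all 17196 genes tested. The median log2 fold change of the members was 0.06, against 0.01 over all tested genes. At an unadjusted p of at most 0.05 in edgeR's test there were 6 members (*lin-14*, *lin-46*, *lin-29*, *mab-10*, *hbl-1* and *lin-41*), among 3908 of all 15024 genes tested. DESeq2's Wald test gave an adjusted p below 0.05 for 4 of them: *lin-14*, *lin-46*, *lin-29* and *mab-10*, none with a log2 fold change of 1. By that test 2030 of all 26472 genes tested passed the adjusted p. In the same 4 genes exposed libraries were separate from unexposed ones, as in 33.1% of all genes tested.

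*lin-14* lay lower in every exposed L3 library, between 30.8 and 31.9 CPM, against 35.4 to 46.1 CPM in the unexposed ones. Its log2 fold change was -0.41 ± 0.11 (95% interval -0.66 to -0.16; adjusted p = 0.0629). *lin-46* also lay lower, between 16.2 and 23.04 CPM in exposed worms and between 23.05 and 32.6 CPM in unexposed worms, so that the groups all but touched. Its log2 fold change was -0.62 ± 0.18 (95% interval -1.03 to -0.21; adjusted p = 0.0793). *hbl-1* had a log2 fold change of 0.42 ± 0.15 (adjusted p = 0.133), with exposed libraries between 30.4 and 36.1 CPM and unexposed ones at 22.3, 22.1 and 31.2 CPM.

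The larva-to-adult genes *lin-29* and *mab-10* had the largest estimates. *lin-29* averaged 40.5 ± 3.23 CPM in exposed and 23.6 ± 8.45 CPM in unexposed L3 worms, a log2 fold change of 0.78 ± 0.23 (95% interval 0.25 to 1.32; adjusted p = 0.0852). *mab-10* averaged 32.9 ± 2.84 CPM in exposed and 17.97 ± 8.03 CPM in unexposed L3 worms, a log2 fold change of 0.87 ± 0.28 (95% interval 0.22 to 1.52; adjusted p = 0.103). In both genes the exposed libraries lay above the unexposed ones, and most of the spread came from 1 library.

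That library was unexposed L3 replicate 3. Without it, the log2 fold change was 1.12 for *lin-29* (adjusted p = 0.000151) and 1.31 for *mab-10* (adjusted p = 9.87e-05), both past the threshold, while the number of all genes changed went to 1267, against 545 with it. Without the fold minimum 7 of the 9 members then passed the adjusted p, against none with it: *lin-29*, *mab-10*, *hbl-1* (0.00267) and *alg-1* (0.0348) higher in exposed worms, and *lin-14* (0.00174), *lin-46* (0.00505) and *lin-41* (0.0354) lower. In that fit 3320 of all 15304 genes tested passed too. Without any one of the other 5 L3 libraries no member passed the adjusted p, and over the 6 such fits the adjusted p ran up to 0.245 for *lin-29* and 0.298 for *mab-10*. The summed level of the moulting-cycle list moved with this library: it was 4355, 4351 and 4737 CPM in exposed L3 libraries, against 3165, 3004 and 5085 CPM in unexposed ones. Its genes went both ways. *mlt-11* and *noah-1* averaged 964 and 820 CPM in exposed L3 worms, against 557 and 486 CPM in unexposed ones. *ptr-23* and *mlt-10* averaged 65.8 and 59.5 CPM in exposed L3 worms, against 211 and 178.5 CPM in unexposed ones. By the adjusted p alone in edgeR's test 6 of its 17 genes were lower with Cd and 0 higher. The 9 hypodermis genes summed to 2963, 3356 and 3783 CPM in exposed L3 libraries, against 7071, 6595 and 4728 CPM in unexposed ones, so replicate 3 was again the unexposed library nearest to the exposed ones. In unexposed L3 worms this sum averaged 6132 CPM, of which *dpy-5* made 2183 CPM and *col-10* 2148 CPM. The lists are not separate, since *dpy-7* and *qua-1* are in both. The part of the difference of unexposed L3 replicate 3 in the results for *lin-29* and *mab-10* was not tested.

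**Figure D3:**
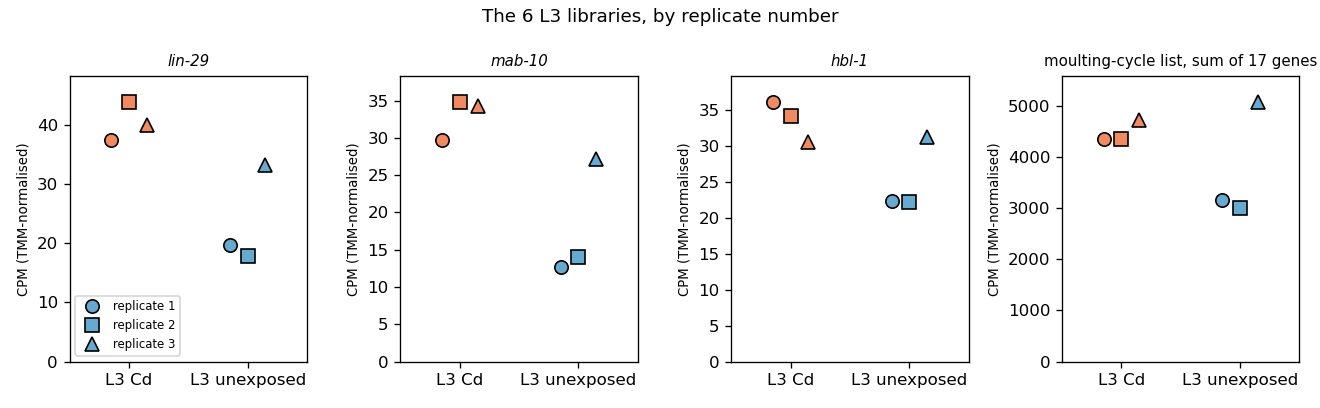
Level of *lin-29*, *mab-10* and *hbl-1* and the summed level of 17 moulting-cycle genes in the 6 L3 libraries, in CPM (vertical axes from 0), exposed on the left and unexposed on the right, with a symbol for each replicate number. Unexposed replicate 3 lies above the other unexposed libraries in all 4 panels, at 33.3, 27.2, 31.2 and 5085 CPM.

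Of the 17 moulting-cycle genes 4 fell with Cd at L3 and none rose: *nas-36* (log2 fold change -2.31), an astacin protease used in shedding the cuticle, *ptr-23* (-1.67), *mlt-10* (-1.58) and *bed-3* (-1.49). Of the 9 hypodermis genes the collagen genes *rol-6* (-1.75) and *dpy-5* (-2.43) fell. Adjusted p-values of these 6 genes lay between 0.0124 and 0.0165 in edgeR's quasi-likelihood test. All 6 calls were lost without unexposed L3 replicate 2, exposed L3 replicate 1 or exposed L3 replicate 2, where 0 genes of the whole table were called lower. With all 6 L3 libraries 508 of all 15024 genes tested were called lower. By the adjusted p alone in edgeR's test, 4 of the 9 hypodermis genes were lower and 1 was higher with Cd. The higher one was *elt-3* (log2 fold change 0.50, adjusted p = 0.0361).

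The remaining members differed little at L3. *daf-12* had a log2 fold change of -0.10 (95% interval -0.30 to 0.10; adjusted p = 0.491), *lin-28* one of 0.06 (-0.15 to 0.27; adjusted p = 0.691), *alg-1* one of 0.17 (-0.05 to 0.39; adjusted p = 0.286) and *lin-41* one of -0.25 (-0.50 to -0.01; adjusted p = 0.183). A change by 1 on the log2 scale lies outside all 4 intervals.

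At L4, edgeR's test of the 6 L4 libraries without a block called none of the 9 genes, with or without the fold minimum. In that fit 0.0432% of all 16201 genes tested changed and 0.0556% passed the adjusted p alone. With the replicate number as a block, 4 members passed the adjusted p alone, among 3402 of all 16201 genes tested. The median log2 fold change of the members was 0.21, against 0.03 over all tested genes. At an unadjusted p of at most 0.05 in edgeR's test there were 3 members, *lin-14*, *lin-28* and *lin-29*, among 4342 of all 16201 genes tested. DESeq2's Wald test gave an adjusted p of 0.0459 for *lin-28* alone, at a log2 fold change of -0.42. By that test 1238 of all 25350 genes tested passed the adjusted p. The groups did not overlap for *lin-14*, *lin-29*, *daf-12* and *lin-28*, 4 of 9 members, against 36.3% of all genes tested.

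*lin-14* had 23.8, 21.1 and 20.2 CPM in exposed L4 libraries, against 18.4, 17.6 and 15.7 CPM in unexposed ones, so that the exposed libraries lay higher, where at L3 they lay lower. Its log2 fold change was 0.35 ± 0.11 (95% interval 0.09 to 0.62; adjusted p = 0.12). *lin-28* had 42.3, 46.3 and 45.1 CPM in exposed L4 libraries, against 68.2, 58.4 and 50.6 CPM in unexposed ones, a log2 fold change of -0.39 ± 0.12 (95% interval -0.65 to -0.12; adjusted p = 0.111). *lin-29* averaged 11.5 ± 1.08 CPM in exposed and 8.86 ± 1.02 CPM in unexposed L4 worms, a log2 fold change of 0.39 ± 0.14 (adjusted p = 0.142).

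*lin-41* averaged 207 ± 51.5 CPM in exposed and 283 ± 72.5 CPM in unexposed L4 worms, with overlap, and its log2 fold change of -0.43 had a 95% interval of -0.92 to 0.07 (adjusted p = 0.231). The oocyte and germline list did not overlap either, at 6899 to 9288 CPM in exposed and 9700 to 12910 CPM in unexposed L4 libraries, while none of its 18 genes passed the test. The 10 muscle genes lay the other way, at 12760 to 13430 CPM in exposed and 8217 to 10610 CPM in unexposed libraries. The moulting-cycle list also lay higher, at 711 to 1144 CPM in exposed and 426.3 to 604.5 CPM in unexposed L4 libraries (median log2 fold change 0.71), as did the hypodermis list, at 1271 to 2000 CPM in exposed and 771.8 to 1121 CPM in unexposed ones (median 0.64). The upper end of the exposed range was replicate 1 alone in both the moulting-cycle and the hypodermis list. Exposed replicates 2 and 3 had 736.5 and 711 CPM in the first and 1271 and 1310 CPM in the second. None of the genes of the muscle, moulting-cycle and hypodermis lists passed the test. These lists moved with the values of *lin-14*, *lin-28*, *lin-29* and *lin-41* at L4, and their part in them was not tested. The log2 fold changes of the other 5 members at L4 lay between -0.20 (*hbl-1*) and 0.29 (*lin-46*), with adjusted p-values between 0.189 and 0.507.

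**Figure D4:**
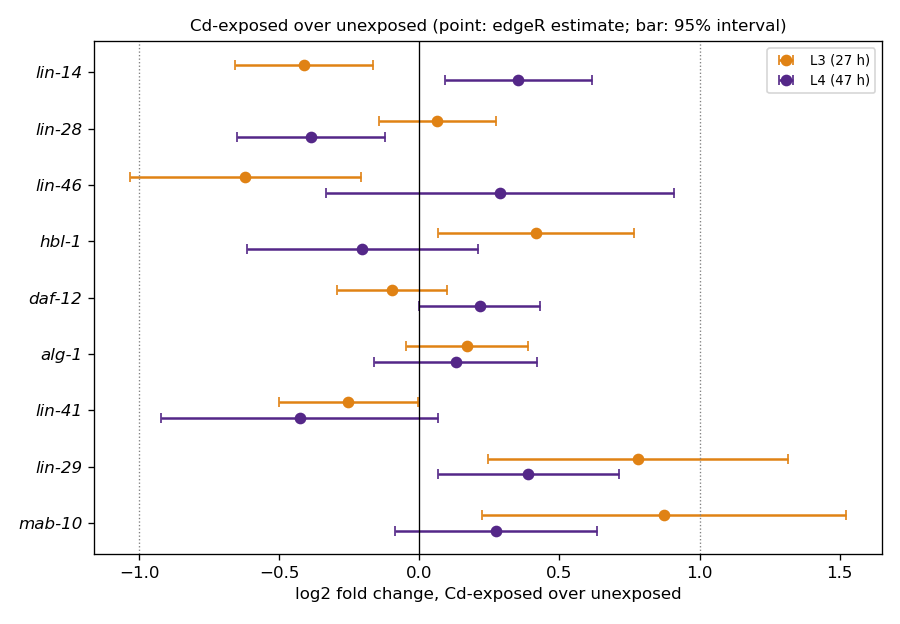
Log2 fold change of each of the 9 genes with Cd, exposed over unexposed, at L3 (27 h) and at L4 (47 h); points are edgeR estimates, bars are unadjusted 95% intervals and dotted lines mark a log2 fold change of 1 in either direction. No gene passed the adjusted test at either stage, and *lin-14* lies left of 0 at L3 (-0.41) and right of 0 at L4 (0.35).

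To compare the Cd effects, all 12 libraries were fitted together and the Cd effect at L4 was subtracted from the one at L3 (log2 scale). None of the 9 members passed with the fold minimum, where 6.23% of all 17196 genes tested did. Of the members, *lin-14* alone passed the adjusted p in edgeR's test, which 11.6% of all genes did: its difference was -0.75 ± 0.16 (95% interval -1.10 to -0.40; adjusted p = 0.0119). Because the same contrast compares the stages with and without Cd, it also sets the stage change of *lin-14* without Cd against the one with Cd, here from 1 fit of all libraries. Leaving out any 1 of the 12 libraries gave differences of -0.86 to -0.65, with adjusted p-values of 0.00146 to 0.0453.

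For the other members the adjusted p was 0.0701 for *lin-28* (difference 0.47), 0.0853 for *lin-46* (-0.90), 0.0952 for *hbl-1* (0.64) and 0.121 for *daf-12* (-0.30). It lay between 0.238 and 0.861 for *mab-10* (0.62), *lin-29* (0.41), *lin-41* (0.19) and *alg-1* (0.06). DESeq2's Wald test gave an adjusted p of 0.00992 for *lin-28* (0.58), 0.0267 for *hbl-1* (0.75) and 0.00416 for *lin-14* (-0.63), 3 members in all. By that test 3518 of all 28579 genes tested passed the adjusted p. Without unexposed L3 replicate 3, 6 members passed the adjusted p in edgeR's test: *lin-14*, *lin-28*, *lin-29*, *lin-46*, *hbl-1* and *mab-10*. Of all 17495 genes tested, 2936 passed it too, and 1555 did so with the fold minimum. In that fit *mab-10* had a difference of 1.05 (adjusted p = 0.00488) and *lin-46* one of -1.05 (adjusted p = 0.0332), both past the threshold. Without unexposed L4 replicate 1, *lin-46* had a difference of -1.12.

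The microRNAs of the pathway could not be followed in these poly-A libraries. The genes *lin-4*, *let-7* and *mir-84* had 0 counts in all 12 libraries, which allows up to 3 counts in each. *mir-48* and *mir-241* had at most 6 counts in a library, and none of the 5 passed the filter. These counts are of long transcripts and say nothing of the mature microRNAs.

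Of 15 genes for the making and use of microRNAs, 14 were in the count tables. By the rule of adjusted p and fold, 7 of them rose and none fell between the stages without Cd, where 28.5% of all genes tested rose. With Cd 5 rose and none fell, where 4250 of all 16650 genes tested rose. The median log2 fold changes of the 14 genes were 0.84 and 0.58. By the adjusted p alone in edgeR's test, 10 were higher and 1 lower without Cd, and 9 were higher and 3 lower with Cd. The lower one without Cd was *ain-1* (-0.92, adjusted p = 3.21e-05). The largest rises without Cd were those of *cgh-1* (3.70), a germline RNA helicase, *pup-2* (2.99), a poly(U) polymerase that works with LIN-28, and *drsh-1* (2.87) and *pash-1* (2.09), which encode the enzyme that cuts primary microRNA transcripts and its partner. *alg-1* itself fell, as given above. None of the 14 changed with Cd at either stage.

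Of 21 further regulators of stage timing, 20 were tested between the stages without Cd, of which 13 fell and 2 rose, and 13 of 21 fell and none rose with Cd. By the same rule 27.9% of all genes tested fell and 28.5% rose without Cd, and 22.6% fell with Cd. The median log2 fold changes of the regulators were -1.75 without Cd and -2.07 with Cd. The largest falls without Cd were those of *nhr-25* (-4.61), a nuclear receptor of the skin, *ins-33* (-4.56), an insulin-like peptide gene, *daf-9* (-4.01), the cytochrome P450 that makes the ligand of DAF-12, and *myrf-1* (-3.16), a membrane-bound transcription factor. *daf-9* averaged 2.03 ± 0.74 CPM at L4 and 34.5 ± 2.04 CPM at L3 without Cd, so that the genes for the receptor DAF-12 and for its hormone-making enzyme fell in the same comparison. With Cd none of the 21 changed at L3 or at L4 by the rule of adjusted p and fold. At L3, 2 of them were lower by the adjusted p alone in edgeR's test, which 6.53% of all genes tested passed. These were *nhr-25* (-0.89, adjusted p = 0.0274) and *kin-20* (-0.79, adjusted p = 0.0448). Without 1 library, their adjusted p ran up to 0.128 and 0.164.

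For each member, the tested genes whose pattern was most like it were found by the root mean square difference of their centred log2 CPM over the 12 libraries, among 17195 other genes. These values are a description, since the libraries share stage and depth. The closest was *mps-2* for *lin-14* (0.0645), followed by *scd-2* (0.0673). They were *D1007.8* (0.0901) and *F42A9.6* (0.0958) for *lin-28*, *rol-3* (0.138) and *mua-3* (0.141) for *lin-29*, and *cdc-25.2* (0.108) and *atg-9* (0.136) for *lin-41*. For *hbl-1* they were *hrg-1* (0.169) and *D1005.2* (0.19), for *daf-12* *C11H1.9* (0.126) and *F26E4.3* (0.13), and for *alg-1* *clec-184* (0.0784) and *fig-1* (0.092). The likeness was weakest for *lin-46*, with *C05B5.4* (0.276) and *nhr-25* (0.286), and for *mab-10*, with *C48E7.1* (0.2) and *glc-2* (0.229).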

How the data were processed

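According to the submitters' processing notes, reads were trimmed with Trimmomatic 0.36, mapped with STAR 2.5.2b to WBcel235 and counted on genes with featureCounts (Subread 1.5.2) by the authors, who deposited unnormalized whole-number counts per gene for each of 12 libraries. The annotation release, the use of strand and the treatment of multiply mapped reads are not given in the sources used here. Between 0.0148% and 2.01% of each library's counts belonged to an entry with no gene name, which entered no total or test. Groups follow the labels, and exposure was checked with *mtl-1*, since 1 of the labels gives Cd 0 for exposed worms.

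Counts were tested with edgeR 4.0.16 (quasi-likelihood test, TMM, filterByExpr) in R 4.3.3 with limma 3.58.1, with Benjamini-Hochberg adjustment over all tested genes. The threshold, an adjusted p of 0.05 and an absolute log2 fold change of 1, is that of the study. Intervals are 95% and unadjusted. Each comparison used its own 2 groups (6 libraries), and the difference between Cd effects used all 12. The labels do not say that the replicates came from separate cultures, so p-values measure only the spread between these samples, which may be technical. The tests were checked on simulated counts. Alternatives were DESeq2 1.42.0, its size factors, no filter, all 12 libraries in 1 fit, the replicate number as a block and leaving out each library.

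The members and lists were chosen with earlier results of these data known. The text names the members, list genes past the threshold (at most 4 per list and comparison, by size of change), the 2 genes most like each member, and *mtl-1*. *col-19*, *kin-20* and *nhr-25* are also values of their lists. *mlt-11*, *noah-1*, *col-10*, *dpy-7*, *qua-1*, *elt-3* and *ain-1* were named after their values were seen.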

Additional observations from a re-analysis of the deposited data

Results flagged for a closer look

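The stage-timing genes *lin-14*, *nhr-25* and *kin-20* had a Cd effect that differed between the stages in the fit of all 12 libraries, at an adjusted p of at most 0.05 in edgeR's quasi-likelihood test. They were 1 of the 9 members and 2 of the 21 further regulators, where 11.6% of all 17196 genes tested passed. For *lin-14* the Cd effect at L3 less the one at L4 was -0.75 on the log2 scale, with exposed libraries below unexposed ones at L3 and above them at L4. For *nhr-25* the difference was -1.25 (adjusted p = 0.0096), with 17.9 ± 0.68 CPM in exposed and 33.2 ± 7.82 CPM in unexposed L3 worms, and 1.65 ± 0.21 CPM in exposed and 1.29 ± 0.07 CPM in unexposed L4 worms (SD, n = 3 each). For *kin-20*, a casein kinase gene, it was -1.02 (adjusted p = 0.01), with 84.6 ± 7.65 CPM in exposed and 147 ± 35.9 CPM in unexposed L3 worms, and 67.5 ± 6.23 CPM in exposed and 58.1 ± 0.54 CPM in unexposed L4 worms. Leaving out each library gave -1.44 to -1.10 for *nhr-25* and -1.21 to -0.88 for *kin-20*, whose difference then fell short of the fold minimum in part of the fits, with adjusted p-values of at most 0.0345 and 0.0385. At L4 *nhr-25* had only 56 to 78 counts in exposed and 43 to 56 counts in unexposed libraries.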

How the results depend on the processing

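Over all settings, 521 of 540 values of the members kept their direction and their side of the threshold, 8 passed it newly and 11 turned in sign. The sign of *mab-10* between the unexposed stages (-0.01) turned with DESeq2 size factors (0.13), DESeq2's Wald test (0.15), no filter (0.025) and the replicate block (0.075), and ran between -0.22 and 0.43 without 1 library. Without 1 library *alg-1* with Cd at L4 ran between -0.015 and 0.26, and in the L3-less-L4 difference *alg-1* ran between -0.10 and 0.18 and *lin-41* between -0.017 and 0.36. The newly passing values not given above were *lin-41* between unexposed stages (1.02 with DESeq2's Wald test and 1.04 without unexposed L4 replicate 1) and *lin-28* between exposed stages (1.01 with DESeq2's Wald test).

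The members counted as changed were 0 to 2 without 1 library, against 0, both for Cd at L3 and for the difference between the Cd effects. Without a fold minimum they were 9 between exposed stages, against 5, and 1 for the difference, against 0. By the adjusted p alone, members with Cd at L3 numbered 0, but 4 without a filter, 3 with all 12 libraries in the fit and 7 without unexposed L3 replicate 3. All genes passing it in those 3 settings numbered 1728 of 26489, 1317 of 17196 and 3320 of 15304. For the difference the members numbered 1, but 2 with DESeq2 size factors, where 2614 of all 17196 genes passed. Counts over all genes moved more. For Cd at L3 they were 545 genes, 981 without a fold minimum and 5 to 1267 without 1 library. For Cd at L4 they were 7 genes, 176 with DESeq2's Wald test, 267 without a filter, 93 with all 12 libraries in the fit and 0 to 12 without 1 library. Between exposed stages they were 8011, and 13225 without a fold minimum. For the difference they were 1072, 1998 without a fold minimum and 635 to 1555 without 1 library. The causes were not tested. DESeq2 size factors moved the median log2 fold change of all genes from -0.07 to 0.07 between unexposed stages, from -0.01 to 0.09 between exposed stages and from 0.01 to 0.11 for the difference, and no direction of a member other than *mab-10* turned with it.

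A replicate number was not treated as pairing libraries, since same-numbered libraries deviated together with correlations of -0.189 to 0.062 at L3 and -0.1 to 0.356 at L4. With the replicate block, 5 genes changed with Cd at L3, none of them lower, and 387 at L4, and no member's call by adjusted p and fold changed in any comparison. By the adjusted p alone the block took the members with Cd at L4 to 4, against 0: *lin-14* (0.0335) and *lin-29* (0.0398) higher, and *lin-28* (0.0452) and *lin-41* (0.0188) lower in exposed worms, among 3402 of 16201 genes. Depth limits *lin-46* and *hbl-1* at L4 most, at 1.20 to 4.75 CPM.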

Other observations

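Seam cells, the skin stem cells whose divisions the heterochronic genes time, had marker genes that were lower at L4. Of 14 seam cell fate genes 10 fell and none rose between the stages without Cd, and 11 fell and none rose with Cd, by edgeR's quasi-likelihood test and the fold minimum. By that rule 27.9% of all genes tested fell without Cd and 22.6% with Cd. The summed level of the 14 seam cell genes was 166.6 to 168.7 CPM in exposed and 168.3 to 187.6 CPM in unexposed L4 libraries. At L3 it was 432.7 to 454.4 CPM in exposed and 477.7 to 498.1 CPM in unexposed libraries, without overlap. The median log2 fold change of the list with Cd at L3 was 0.13, the other way, and none of the 14 genes changed with Cd at either stage by the rule of adjusted p and fold. The gene with a lower level and an adjusted p of 0.0221 at L3 was *grd-10*, at 153 ± 8.75 CPM in exposed and 222 ± 25.3 CPM in unexposed worms (SD, n = 3 each, log2 fold change -0.53), and it was named after its values were seen. The sum of all 14 genes averaged 444.5 CPM in exposed and 489.3 CPM in unexposed L3 libraries. In CPM, *grd-10* alone thus fell by more than the whole sum. The 10 neuronal genes summed to 371 to 395.8 CPM in exposed and 347.7 to 375.6 CPM in unexposed L4 libraries, and to 587.6 to 660.6 CPM in exposed and 595.5 to 634.1 CPM in unexposed L3 libraries.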
